A study of Mus musculus with 8 samples.

Results

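Interferon-stimulated genes, the genes that cells switch on after an interferon binds its receptor, were followed through the epithelium and stroma of mouse colon assembloids. The 38 symbols of the list were chosen by their known role, with the levels measured in these 8 libraries and in their marker-gated cells already in view, and every row of the gene tables with such a symbol was taken. Of the 38 symbols, 36 had 1 row among the 32285 genes. Mx1 and Mx2 had none and were not analysed here. Counts over the list are therefore given beside the same counts over all genes and carry no test of their own.

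Cells signal through interferons in 3 families. Type I and type III interferons act on genes through the interferon-stimulated response element (ISRE), which STAT2 and IRF9 help to bind, and type II interferon acts mainly through the gamma-activated site (GAS). The products sense foreign nucleic acid, block translation, tag or trap proteins, or return to the pathway as transcription factors and brakes. In the gut, epithelial cells are known to respond more to type III than to type I interferon, and stromal and immune cells respond to type I and type II. A low level of such genes is also kept in many tissues without infection.

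The libraries came from young adult male C57BL/6 mice without an added transgene, and each of the 4 groups had 2 libraries. Assembloids are 3-dimensional co-cultures in which colon organoids were placed into a gel drop of primary colon stromal cells that had first been grown in flasks, and they were kept without added Wnt, R-spondin, CHIR-99021 and noggin. The assembloid stroma libraries are labelled as stromal cells of such cultures, which the study analysed as EpCAM-negative cells, and the assembloid epithelium libraries as epithelial cells. No sort of them is described in the sources used here. Organoid epithelium came from crypt cultures without stroma, and tissue epithelium from crypts of fresh colon. The standard organoid medium of the study contains these 4 factors, among them the small molecule CHIR-99021, and the medium of the sequenced organoids is not given separately in the sources used here. The stroma was derived from 2 mice. For the other groups the study calls the libraries replicates without naming the animals here, so the tests measure the spread between these libraries. Interferon was not added in any group that the labels describe.

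Each library was captured with the 3' kit of 10x Genomics, in which every captured RNA molecule carries a unique molecular identifier (UMI). After removal of cells under 500 genes or over 10% mitochondrial counts, 4310 to 29410 cells remained in a library. The cells used held 36934586 to 187580456 UMIs in a library. Levels are given as CPM, the share of a gene in all UMIs of the cells used, scaled to a common total of 1000000 UMIs. Cells were named by a gate on lists of 10 markers, and "-like" after a cell type refers to this gate. Epithelial markers summed to 7740 to 16525 CPM in the cells used from epithelial libraries and to 37.6 to 199 CPM in those used from stroma, where fibroblast markers summed to 8005 and 11694 CPM. The cell barcodes shared by any pair of libraries numbered at most 76, and doublets were left in. The epithelial libraries carry another version of the counting software than the stromal ones, so that this version and the compartment cannot be told apart in a direct comparison.

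One library stood apart for these genes. In assembloid stroma 2 the 36 members summed to 2340 CPM, against 1013 CPM in assembloid stroma 1. The other pairs of replicates lay close together, with 397 and 405 CPM in assembloid epithelium, 188 and 194 CPM in organoid epithelium, and 408 and 407 CPM in tissue epithelium. The comparison of stroma with epithelium is given with and without the library that stood apart, and results within the stroma are given for each library.

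Stretches of the promoters are shown first, since they carry the letters to which the transcription factors of the pathway bind. RefSeq promoter windows of 300 bases (250 before and 50 after the start, build GRCm38.p6) were found for 29 of the 36 members. None was found for Usp18, Dhx58, Zbp1, Oas2, Parp14, Rtp4 and Ifi27. The ISRE letters searched were GAAA, any 2 bases and GAAA again, with overlapping matches allowed, and they were present on either strand in 17 of the 29 (58.6%), against 1079 of 27025 genes in all (3.99%). The GAS letters TTCNNNGAA were present in 8 of the 29 (27.6%) against 9.55% of all genes. The GAS letters read the same on both strands, so each match was counted once. The following stretches run 5′ to 3′ along the gene, and capitals mark the matched letters of both motifs. They show the 4 IFIT genes, of which Ifit3, Ifit3b and Ifit1 had the 3 largest falls from assembloids to organoids. Isg15, Oas1a, Gbp2 and Bst2 are shown as members of other role groups with an ISRE match, together with Irf1. No sensor is shown, although Ifih1, Ddx58, Ddx60 and Eif2ak2 had an ISRE match. Ifit2 and Irf1 had a GAS match and no ISRE match in their windows. In Bst2 a GAS match runs into the ISRE matches, so that the capitals cover both, and Oas1a had a GAS match outside the stretch shown.
Ifit1, chr19:34640765-34640833, + strand: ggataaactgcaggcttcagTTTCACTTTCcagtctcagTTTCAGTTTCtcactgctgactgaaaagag
Ifit2, chr19:34550444-34550481, + strand: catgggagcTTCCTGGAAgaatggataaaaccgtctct
Ifit3, chr19:34583353-34583436, + strand: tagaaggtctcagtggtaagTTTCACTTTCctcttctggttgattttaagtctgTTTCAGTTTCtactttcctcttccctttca
Ifit3b, chr19:34607749-34607832, + strand: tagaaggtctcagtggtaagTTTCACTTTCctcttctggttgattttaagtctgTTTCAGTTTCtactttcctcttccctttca
Isg15, chr4:156200855-156200916, - strand: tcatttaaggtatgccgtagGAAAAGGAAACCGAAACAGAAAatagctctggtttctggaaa
Bst2, chr8:71537567-71537622, - strand: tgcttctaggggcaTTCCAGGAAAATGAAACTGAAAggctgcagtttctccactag
Gbp2, chr3:142620584-142620633, + strand: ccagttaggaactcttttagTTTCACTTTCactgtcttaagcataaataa
Oas1a, chr5:120907510-120907565, - strand: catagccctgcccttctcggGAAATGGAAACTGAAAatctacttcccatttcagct
Irf1, chr11:53769904-53769952, + strand: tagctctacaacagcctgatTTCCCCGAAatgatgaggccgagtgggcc

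The stretches of Ifit3 and Ifit3b were identical over 84 bases, with both ISRE matches in the same places. These genes lie near each other on chromosome 19. Reads of such near copies may not be told apart by the counting, so their separate values are uncertain. In Isg15, 3 overlapping matches began between 78 and 66 bases before the start, and in Oas1a the overlapping matches began 20 and 14 bases before it. A match of letters is a description and not a site shown to be bound.

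The IFIT proteins bind viral RNA and block its translation. Ifit1 stood at 18.9 and 97.2 CPM in assembloid stroma, 5.27 and 7.34 in assembloid epithelium, 0.0320 and 0.0862 in organoids and 0.553 and 1.30 in tissue. Ifit3 stood at 15.3 and 99.1 CPM in assembloid stroma, 2.13 and 2.83 in assembloid epithelium, 0.0160 and 0.0108 in organoids and 0.191 and 0.244 in tissue. For both genes the 4 groups did not overlap, and the order from stroma over assembloid epithelium and tissue to organoids was the same. Ifit3b followed the same order with 5.67 and 28.2 CPM in stroma, 0.518 and 0.769 in assembloid epithelium, 0.128 and 0.135 in tissue, and 0 and 1 UMI in organoids. Ifit2 departed from it. It stood at 5.55 and 17.8 CPM in stroma, 0.947 and 1.70 in assembloid epithelium, 0.960 and 0.862 in organoids and 0.362 and 0.487 in tissue. Organoids therefore overlapped assembloid epithelium and lay above tissue.

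ISG15 is a ubiquitin-like tag that is added to many proteins, and USP18 removes the tag and also dampens the type I receptor. Isg15 was detected at 97.4 and 351 CPM in stroma, 7.63 and 7.05 in assembloid epithelium, 0.880 and 0.808 in organoids and 3.47 and 6.80 in tissue. Usp18 was detected at 6.99 and 27.3 CPM in stroma, 1.04 and 1.36 in assembloid epithelium, 0.0373 and 0.0755 in organoids and 0.553 and 1.08 in tissue. Both genes were lowest in organoids and highest in stroma, and for Usp18 assembloid epithelium and tissue overlapped.

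The list holds 4 transcription factors. Irf1, known for its response to type II interferon, stood at 21.4 and 31.4 CPM in stroma, 29.4 and 23.7 in assembloid epithelium, 23.1 and 24 in organoids and 36.8 and 36.4 in tissue. Stat2 stood at 16.2 and 40.9 CPM in stroma, 11.5 and 11.6 in assembloid epithelium, 5.89 and 10.9 in organoids and 15.3 and 12.5 in tissue. Irf1 in stroma overlapped both cultured epithelia. For Stat2 the organoid libraries lay lowest, but narrowly, with 10.9 CPM in the higher one against 11.5 CPM in the nearest assembloid library. Irf9, which binds DNA together with STAT2, ranged from 3.95 to 36.1 CPM over the 8 libraries, and Irf7, which amplifies the type I response, from 1.76 to 57.6 CPM.

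Among the sensors of foreign nucleic acid, Eif2ak2, which encodes the kinase PKR that stops translation, was found at 25.6 and 55.5 CPM in stroma, 19.8 and 29.5 in assembloid epithelium, 34.3 and 36.9 in organoids and 37.1 and 37.6 in tissue. Ifih1, which encodes the RNA sensor MDA5, was found at 10.8 and 27.3 CPM in stroma, 9.05 and 12.8 in assembloid epithelium, 6.66 and 9.95 in organoids and 29.5 and 28.4 in tissue. Tissue thus held the highest Ifih1 of all groups, and for Eif2ak2 the stromal libraries lay on both sides of organoids and tissue. Ddx58 (the sensor RIG-I), Dhx58, Ddx60 and Zbp1 were highest in stroma 2, and their lowest library was an organoid library for each of them.

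The oligoadenylate synthetases make a messenger that activates RNase L. Oas1a stood out from most members, with 0.455 and 3.71 CPM in stroma, 10.9 and 14.8 in assembloid epithelium, 9.93 and 9.12 in organoids and 25.9 and 28.3 in tissue. Oasl2 stood at 11.9 and 56.7 CPM in stroma, 4.05 and 4.45 in assembloid epithelium, 0.544 and 0.819 in organoids and 4.68 and 3.84 in tissue. Oasl1, known to restrain Irf7 translation, stood at 2.32 and 6.92 CPM in stroma, 24.1 and 23.8 in assembloid epithelium, 1.05 and 2.35 in organoids and 4.13 and 7.20 in tissue. No common order held in this family, as Oas1a was highest in tissue, Oasl1 in assembloid epithelium and Oasl2 in stroma. Oas2 and Oas3 were sparse, with 2 and 3 UMIs in both organoid libraries together.

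Of the guanylate-binding proteins, large GTPases that act on membranes of invading microbes, Gbp2 stood at 11.7 and 25.4 CPM in stroma, 0.364 and 0.232 in assembloid epithelium, 0.0107 and 0.0323 in organoids and 1.91 and 1.65 in tissue. Gbp7 stood at 11.6 and 34.6 CPM in stroma, 0.661 and 0.973 in assembloid epithelium, 0.357 and 0.636 in organoids and 6.13 and 4.58 in tissue. In contrast to the IFIT genes, both lay higher in tissue than in assembloid epithelium, without overlap. Gbp3 stood at 5.10 and 21.1 CPM in stroma, 0.209 and 0.185 in assembloid epithelium, 0.0213 and 0.0323 in organoids and 0.532 and 0.217 in tissue.

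Another 12 effectors act in different ways. Bst2, or tetherin, which holds budding virus at the cell surface, stood at 281 and 627 CPM in stroma, 26.6 and 33.3 in assembloid epithelium, 46.4 and 31.2 in organoids and 20.2 and 20.4 in tissue. Ifi27, a small membrane protein, stood at 237 and 169 CPM in stroma, 20.1 and 27.3 in assembloid epithelium, 7.20 and 5.96 in organoids and 64.7 and 60.4 in tissue. For Bst2 the organoid and assembloid libraries overlapped and both lay above tissue, and Ifi27 was the only member lower in stroma 2 than in stroma 1. Ifi35 stood at 28.6 and 50.4 CPM in stroma, 112 and 92.4 in assembloid epithelium, 15.8 and 16 in organoids and 21.5 and 25 in tissue, with assembloid epithelium above all other libraries. Isg20, an RNA exonuclease, stood at 34.4 and 40.4 CPM in stroma, 16.2 and 14.4 in assembloid epithelium, 6.06 and 4.39 in organoids and 22.9 and 21.4 in tissue. Trim30a stood at 7.34 and 33.1 CPM in stroma, 1.81 and 1.48 in assembloid epithelium, 0.171 and 0.259 in organoids and 6.83 and 7.09 in tissue. Ifi44 stood at 6.06 and 39.0 CPM in stroma, 1.12 and 0.852 in assembloid epithelium, 1 and 2 UMIs in organoids, and 0.425 and 0.406 CPM in tissue. Rsad2 (viperin) and its neighbour Cmpk2, Samd9l, Parp14, Rtp4 and Xaf1 ranged from 0.197 CPM (Rsad2 in organoids) to 70.0 CPM (Rtp4 in stroma) over the libraries.

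**Figure D1:**
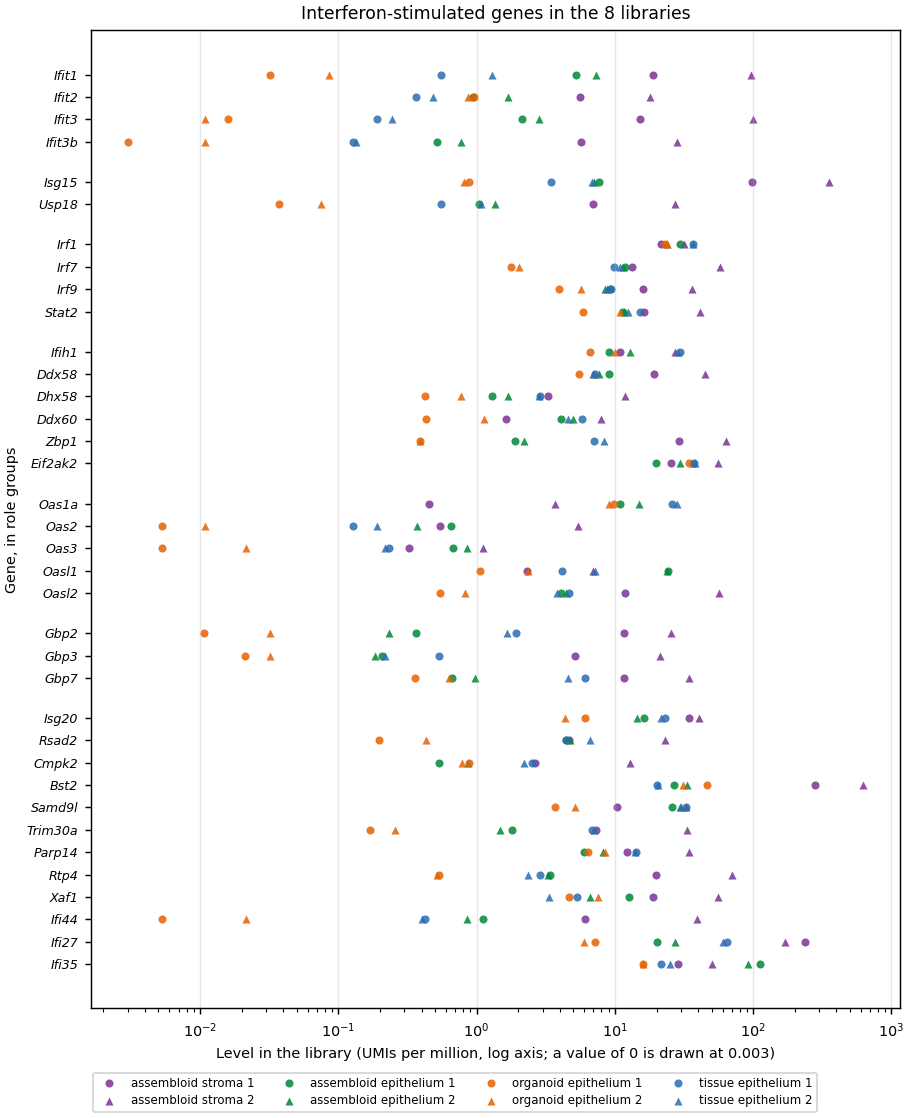
Level of the 36 members (rows, in role groups) in each of the 8 libraries, in CPM on a log axis, with circles for replicate 1 and triangles for replicate 2 and a value of 0 at the left edge. Organoid libraries (orange) lie lowest for most members, and stroma 2 (purple triangles) lies highest for most, with Oas1a, Oasl1, Ifi35 and Irf1 among the exceptions.

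Organoid and assembloid epithelium were compared as cultures without and with stroma. Dissociation differed between them, with Liberase TL and DNase I before TrypLE for assembloids and TrypLE alone for organoids. Medium may differ too, and cell makeup differed, as given below. The parts of these cannot be told apart from that of the stroma. Of the 36 members, 26 were lower in organoids and 0 were higher (edgeR quasi-likelihood test, Benjamini-Hochberg adjusted p under 0.05 over 19278 genes). Of all genes, 53.5% were called in this comparison, 28.9% lower and 24.6% higher. The median log2 fold change of the members was -2.77, against -0.01 for all genes. The 3 largest falls were Ifit3, Ifit3b and Ifit1, for which the fitted log2 fold changes depend on very few organoid UMIs. In counts, both organoid libraries together held 4 UMIs of Ifit3, 1 of Ifit3b and 14 of Ifit1. The level in assembloids was 168 times that in organoids for Ifit3 (95% counting interval 65.4 to 619), 173 times for Ifit3b (30.6 to 6866) and 122 times for Ifit1 (72.3 to 223). These intervals cover counting error alone.

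By role, 3 of 4 IFIT genes, both of Isg15 and Usp18, 3 of 4 transcription factors, 4 of 6 sensors, 4 of 5 OAS genes, 2 of 3 guanylate-binding proteins and 8 of 12 other effectors were lower in organoids. Oasl1 differed by -4.03 ± 0.37 (log2 fold change ± SE, adjusted p = 1.25e-04), Isg15 by -3.25 ± 0.39 (adjusted p = 3.60e-04), Irf7 by -2.78 ± 0.22 (adjusted p = 7.48e-05) and Ifi35 by -2.83 ± 0.25 (adjusted p = 1.02e-04). The members that were not called were Ifit2, Irf1, Ddx58, Eif2ak2, Oas1a, Gbp7, Cmpk2, Bst2, Parp14 and Xaf1, and their log2 fold changes lay between -0.89 and 0.41. Under every alternative tried, each library left out in turn included, 23 of the 26 calls were kept. The exceptions were Stat2, Ifih1 and Gbp3. The share of all genes that kept their call is not given here. The count is therefore not read as a result about the members.

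Cells of stromal types were captured with the assembloid epithelium, and markers of such types were measurable in its epithelial-like cells. The 10 fibroblast markers summed to 300 and 81.8 CPM there, with none at 0, which is 2.30% and 0.624% of their level in the fibroblast-like cells of the same libraries. In organoids they summed to 1.16 and 1.75 CPM with 5 of 10 at 0, and in tissue to 0.553 and 0.271 CPM with 7 and 6 at 0. Macrophage markers summed to 112 and 41.9 CPM in assembloid epithelium, 3.48 and 7.24 in organoids and 5.19 and 4.95 in tissue. Markers of glia summed to 797 and 539 CPM in assembloid epithelium, 35.4 and 56.6 in organoids and 109 and 84.3 in tissue, of which Erbb3, a receptor that epithelial cells also express, gave 794 and 534, 32.9 and 53.3, and 103 and 79.7 CPM. Sox10, which defines glia, stood at 0.191 and 0.0648 CPM in assembloid epithelium. Neuron markers summed to 30.4 and 40.9 CPM in assembloid epithelium, 1.58 and 3.22 in organoids and 11.4 and 22 in tissue. In assembloid epithelium, Elavl3 gave 14.8 and 27.3 CPM of this sum and Tubb3 12.1 and 7.52 CPM. Measured in the same way as the fibroblast markers, the members in epithelial-like cells of assembloids stood at 36.9% and 28.4% of their summed level in fibroblast-like cells. For single members this share was 11.7% and 21.2% for Ifit1, 8.54% and 5.60% for Ifit3, 8.06% and 6.34% for Isg15, and 4.43% and 2.34% for Ifi44. Oasl1 and Ifi35 stood higher in epithelial-like than in fibroblast-like cells, with shares of 308% and 214% for Oasl1 and 403% and 307% for Ifi35. The source of these marker UMIs, and how much of the level of each member came from free RNA, were not tested.

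Assembloid epithelium was then set against tissue epithelium, the comparison of the co-culture with fresh colon. Tissue crypts were released with EDTA and DTT before TrypLE. Dissociation thus differed from that of both cultures, and its part cannot be told apart from that of culture. Here members differed in both directions. Of 36, 11 were higher and 9 lower in assembloids (edgeR, adjusted p under 0.05), while 26.8% of all genes were called higher and 23.1% lower. The share of members called, 20 of 36, lay near that of all genes, 49.9%, and the member median was 0.29 against 0.03 for all genes.

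All 4 IFIT genes were higher in assembloids, led by Ifit3 (log2 fold change 3.88 ± 0.45, adjusted p = 2.77e-04), Ifit1 (3.15 ± 0.47, adjusted p = 9.51e-04) and Ifit3b (2.64 ± 0.62, adjusted p = 0.00825). Oasl1, Oas2, Oas3, Ifi35, Ifi44, Xaf1 and Bst2 were higher as well. The largest falls were those of Gbp7 (-2.35 ± 0.36, adjusted p = 0.00109), Gbp2 (-2.16 ± 0.50, adjusted p = 0.00773) and Trim30a (-1.68 ± 0.31, adjusted p = 0.00263). Zbp1, Cmpk2, Ifih1, Ifi27, Oas1a and Parp14 were lower too. None of the 4 transcription factors and neither Isg15 nor Usp18 passed the threshold, with log2 fold changes of -0.07 to 0.93 in these 6 genes.

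The number of calls fell when tissue 1, tissue 2 or assembloid 1 was left out. Such a fit has fewer degrees of freedom, and the share of all genes called in it is not given here. The fall is therefore not read as a result about the members. Ifit1, Ifit3, Oasl1 and Ifi35 remained higher, and Ifih1, Zbp1 and Gbp7 remained lower, under every alternative tried. When all passing cells were summed, the fibroblast-like and macrophage-like ones included, 18 members were higher and 6 lower. The share of all genes called in that fit is not given here, so the shift in the count is not read as a result about the members. With all passing cells, Gbp2 (-0.48, adjusted p = 0.352) and Trim30a (-0.30, adjusted p = 0.446) were no longer called by edgeR, and Gbp2 was not called without tissue 1 either.

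Organoid epithelium against tissue epithelium gave 2 members higher and 28 lower (edgeR, adjusted p under 0.05), while 47.3% of all genes were called, 24.3% higher and 22.9% lower. The member median was -2.28 against 0.06 for all genes. Gbp2 fell most. Both organoid libraries held 5 UMIs of it together and the tissue libraries 151, a tissue level 101 times that of organoids (95% counting interval 42.3 to 315). Ifi44 followed with 3 UMIs in organoids and 35 in tissue, a ratio of 39.0 (12.3 to 198), and then Trim30a with a log2 fold change of -4.81 ± 0.36 (adjusted p = 3.23e-05). Bst2 (1.21 ± 0.28, adjusted p = 0.00824) and Ifit2 (1.36 ± 0.45, adjusted p = 0.0362) were higher in organoids, although neither call was kept without tissue 1 or without tissue 2. Stat2, Irf1, Ifi35, Ddx58, Eif2ak2 and Xaf1 were not called. Cell makeup differed as well. Stem-like cells were 4516 of 4868 and 4811 of 7825 epithelial-like cells in organoids, 157 of 4672 and 73 of 4301 in tissue, and 971 of 28060 and 426 of 6920 in assembloids. The gate left 316 and 2940 of these cells unclassed in organoids, 1017 and 1152 in tissue, and 18876 and 3911 in assembloids. It was applied without thinning, at median depths of 3418.5 to 35228 UMIs, so makeup and depth are not separated in these shares. Among thinned epithelial-like cells with at most 2 members, 56.5% and 44.5% of organoid cells and 6.72% and 6.04% of tissue cells had at least 3 cycling genes. Within stem-like cells alone the members summed to 187 and 194 CPM in organoids, 284 and 271 CPM in tissue and 346 and 351 CPM in assembloids. Of this, Ifi35 alone gave 122 and 118 CPM in assembloids and 22.7 and 19.8 CPM in tissue. The place of assembloids above tissue in these sums rests on this gene. The part of cell makeup in the calls was not tested. The comparisons among the 3 epithelial groups share their libraries and are therefore given side by side, with no test of their likeness.

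**Figure D2:**
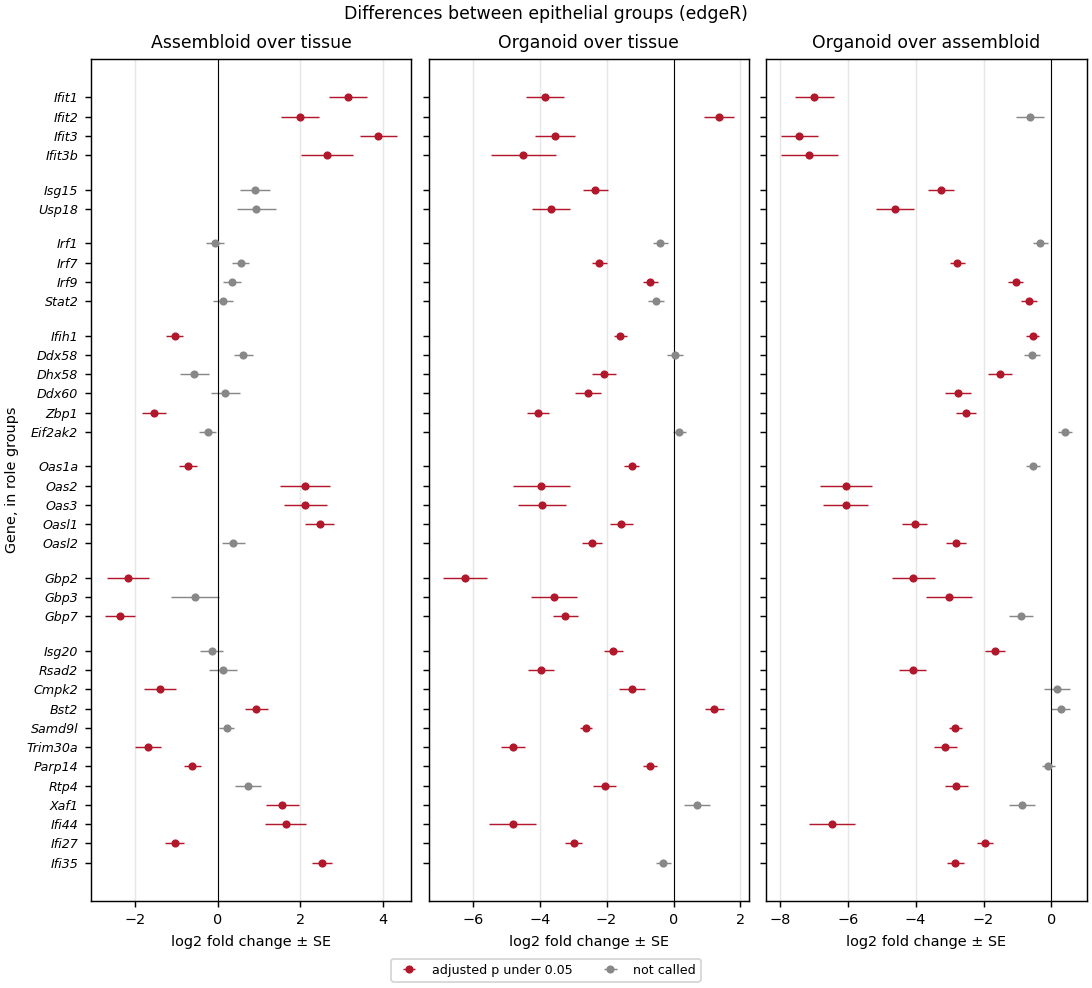
Log2 fold change ± SE of each member in the 3 comparisons among epithelial groups, with red points for genes called by edgeR at an adjusted p under 0.05. Points lie on both sides of 0 for assembloid over tissue (11 higher, 9 lower), and left of 0 for most members in both organoid comparisons.

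The stromal cells of assembloids were next compared with their epithelial cells. Of the 36 members, 29 were higher in stroma and 3 lower (edgeR, adjusted p under 0.05 over 20620 genes), while 38.7% of all genes were called higher and 33.9% lower. The member median was 2.59. The median of all genes was 0.15 with TMM scaling and -0.12 with the size factors of DESeq2, so fold changes near these values have no fixed sign. Gbp3 (6.19 ± 0.75, adjusted p = 1.28e-04), Gbp2 (6.07 ± 0.50, adjusted p = 1.77e-05) and Isg15 (5.09 ± 0.64, adjusted p = 1.60e-04) rose most. Oas1a (-2.45 ± 0.73, adjusted p = 0.0150), Oasl1 (-2.22 ± 0.52, adjusted p = 0.00464) and Ifi35 (-1.22 ± 0.30, adjusted p = 0.00589) were lower in stroma. Samd9l, Oas3, Irf1 and Ddx60 were not called. Without stroma 2, Irf7, Stat2, Ifih1, Eif2ak2, Oas2, Rsad2 and Xaf1 were no longer called higher. Stat2 and Xaf1 lost the call under that alternative alone. The others lost it under further ones too, such as DESeq2 for Ifih1 and Eif2ak2. The member median was 1.33 without stroma 2 and 3.10 without stroma 1.

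The same difference could be read within libraries, where the version of the counting software is shared, because some fibroblast-like cells were captured with the epithelium and some epithelial-like cells with the stroma. In the assembloid epithelial libraries, fibroblast-like cells held 1076 and 1425 CPM of members against 397 and 405 CPM in epithelial-like cells. In the stromal libraries the values were 1051 and 2360 CPM against 294 and 308 CPM, the last from 56 epithelial-like cells. Whether the epithelial-like cells of the stromal and of the epithelial libraries are of the same kind was not tested. A total of 30 members were higher in fibroblast-like than in epithelial-like cells in each of these 4 libraries and 0 were lower in each. Of all 20749 genes with at least 20 UMIs there, 27.8% were higher and 19.2% lower in all 4. Ifi35 and Oasl1 behaved differently by library. Ifi35 stood at 112 and 92.4 CPM in epithelial-like cells of the epithelial libraries but at 27.2 and 17.0 CPM in those of the stromal libraries, and Oasl1 at 24.1 and 23.8 CPM against 0.684 and 4.69 CPM. The other members without a common direction were Usp18, Oas1a, Isg20 and Samd9l. The 145 and 140 macrophage-like cells of the assembloid epithelial libraries held 1140 and 1466 CPM of members. Against epithelial-like cells 31 members were higher and 3 (Isg20, Samd9l and Ifi35) lower in both libraries, beside 31.3% and 49% of all genes. The 57 endothelial-like cells of stroma 2 held 2493 CPM.

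**Figure D3:**
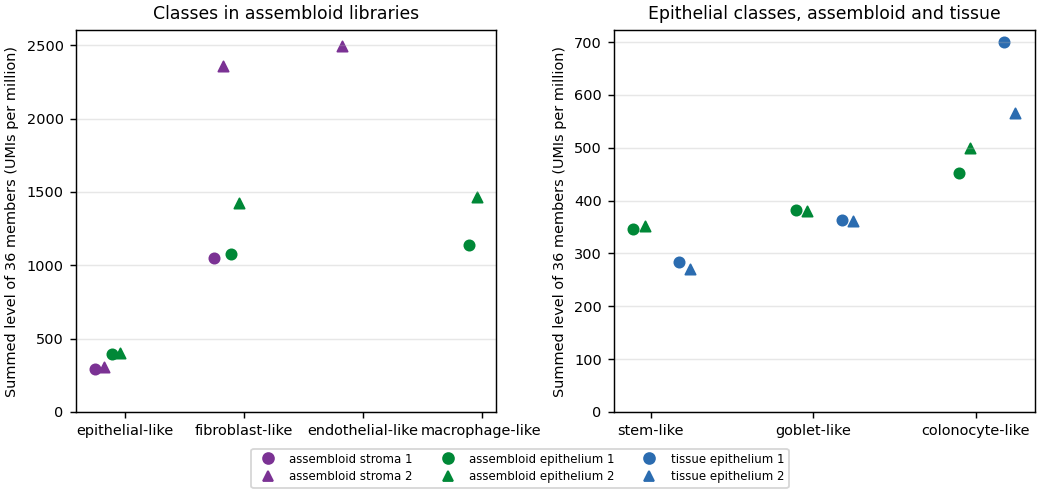
Summed level of the 36 members in CPM, by marker-gated class and library (classes with at least 50 cells), with circles for replicate 1 and triangles for replicate 2. In the left panel, fibroblast-like cells lie at 1051 or above and epithelial-like cells at 405 or below in each of the 4 assembloid libraries. Macrophage-like cells, drawn for the assembloid epithelial libraries alone, lie at 1140 and 1466. In the right panel, which also holds goblet-like cells, colonocyte-like cells lie above stem-like cells in each library that holds both.

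Within the epithelium the members were compared along differentiation. Colonocyte-like cells are the absorptive cells of the upper crypt and stem-like cells those of the crypt base. Members summed to 452 and 500 CPM in colonocyte-like cells of assembloids against 346 and 351 in stem-like cells, and to 701 and 566 against 284 and 271 CPM in tissue. In each of the 4 libraries 23 members were higher in colonocyte-like cells and 1, Bst2, was lower. Of 16178 genes with at least 20 UMIs in these cells, 12.9% were higher and 44.8% lower in all 4. In tissue the stem-like cells were few (157 and 73). Organoids held 19 and 10 colonocyte-like cells, and no comparison was made in them.

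Irf7 stood at 25.5 and 26.2 CPM in colonocyte-like against 5.46 and 5.76 CPM in stem-like cells of assembloids, and at 34.8 and 25.9 against 4.61 and 5.15 CPM in tissue. Oas1a stood at 16.7 and 22.7 against 8.94 and 9.60 CPM in assembloids, and at 50.1 and 53.0 against 13.5 and 10.3 CPM in tissue. Ifit1 stood at 12.5 and 21.1 against 1.66 and 1.39 CPM in assembloids, and at 3.84 and 3.93 CPM against 0 UMIs in the stem-like cells of tissue. Irf1 and Irf9 were higher in colonocyte-like than in stem-like cells in both tissue libraries and lower in both assembloid libraries, and Isg20, Ifit2 and Rsad2 were the reverse. In tissue, Ifit2 stood at 0.366 against 0.988 and 0.414 against 0.859 CPM. All epithelial-like tissue cells held only 17 and 18 UMIs of it, so its direction there rests on very few counts. Whether these opposite directions exceed the spread between libraries was not tested. Fibroblast markers summed to 197 and 73.6 CPM in colonocyte-like and 79.7 and 32 CPM in stem-like cells of assembloids. In tissue they were at or near 0, with at most 0.207 CPM in colonocyte-like cells and 1.32 CPM in stem-like cells.

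Single cells were compared after each was thinned to 2000 UMIs, since depth differed between libraries. The measure was the share of cells with UMIs of at least 5 different members. It was 3.68% (95% exact binomial interval 3.29 to 4.11) of 8364 cells in stroma 1 and 19.5% (18.6 to 20.3) of 8960 in stroma 2. It was 0.434% (0.350 to 0.532) and 0.521% (0.357 to 0.734) in assembloid epithelium, and 0.369% (0.169 to 0.699) and 0.398% (0.199 to 0.710) in tissue. In organoids 1 of 4762 cells and 0 of 4614 cells reached it, with exact intervals of 0.000532% to 0.117% and 0% to 0.0799%, and 3 counts of the latter total, the limit used here for a count of 0, would be 0.0650%. These intervals cover counting error alone. Before thinning, the median depth of the cells that entered was 4622 to 35595.5 UMIs over the 8 libraries. Of 3198 and 2778 goblet-like cells in tissue, 1087 and 1486 entered, so the shares describe the deeper cells of a library. The shallower cells left out were 2233 of 4672 and 1535 of 4301 in tissue and 106 of 4868 and 3211 of 7825 in organoids. In assembloid epithelium they were 6852 of 28060 and 776 of 6920, and in stroma 48 of 8412 and 32 of 8992. Without thinning and with those cells put back, the share was 60.9% and 82.1% in stroma, 6.24% and 24.1% in assembloid epithelium, 25.9% and 20.9% in tissue and, for organoids, 44.4% and 10.3%. The ranges of the epithelial groups then overlapped. In the epithelial-like cells of the stromal libraries, 2 of 605 cells (0.331%) and 0 of 56 cells reached 5 members after thinning. These cells differed from those of the epithelial libraries in Ifi35 and Oasl1, as given above. The part of free RNA in these shares was not tested.

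**Figure D4:**
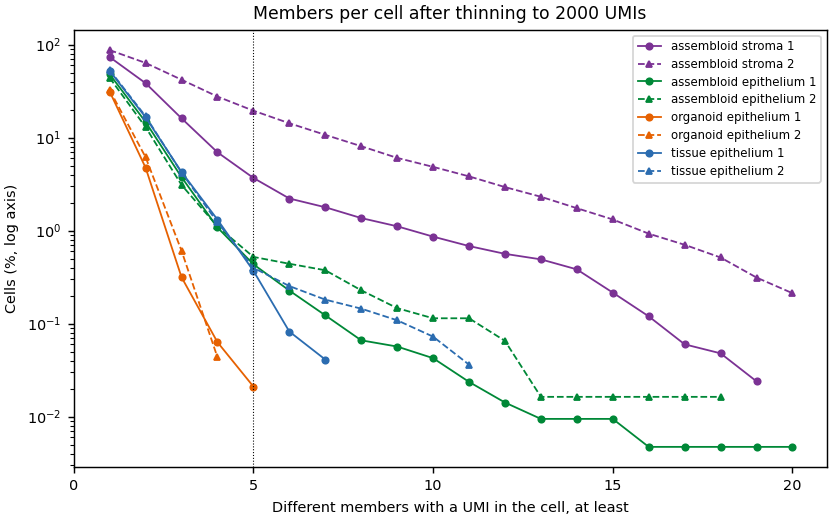
Share of thinned cells (percent, log axis) with UMIs of at least the given number of different members, for 1 to 20 members, in each of the 8 libraries. The dotted line marks 5 members, where the curves of stroma pass at 3.68% and 19.5% and those of assembloid and tissue epithelium between 0.369% and 0.521%.

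Member UMIs were spread unevenly over the stromal cells. The variance of member UMIs per thinned cell was 5.77 and 10.1 times the mean in stroma, 2.66 and 5.37 times in assembloid epithelium, 1.00 and 1.17 times in organoids and 1.24 and 1.46 times in tissue, where a value of 1.00 is that of counting error. In stroma 26.6% and 12.7% of thinned cells held none. Of the cells with at least 5 members, 297 of 308 in stroma 1 and 1705 of 1744 in stroma 2 were fibroblast-like, beside 7838 of 8364 and 8638 of 8960 thinned cells in all. By construction such cells are rich in members, and their levels are a description. In these cells Isg15 stood at 1324 and 1211 CPM in stroma 1 and 2 and Ifit1 at 372 and 401 CPM. In fibroblast-like cells with at most 2 members, Isg15 stood at 36.7 and 79.7 CPM and Ifit1 at 2.89 and 11.8 CPM. The cells with several members and those with at most 2 had similar depth (medians of 15797 against 14963 UMIs in stroma 1 and 13519 against 13046 in stroma 2). The mitochondrial share was 4.06% against 3.86% and 4.24% against 4.06%. The share with at least 3 cycling genes was 28.3% against 28.0% and 17.2% against 18.9%. Their fibroblast markers summed to 10318 against 8382 and 13933 against 11324 CPM.

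Between the stromal libraries, 32 of the 36 members were at least 2-fold higher in stroma 2 (88.9%), against 4.16% of 17111 genes, and the members were chosen with earlier results of these libraries known. The median ratio was 3.31, with the largest for Oas2 (10.0), Oas1a (8.14), Ifit3 (6.48) and Ifi44 (6.43). Isg20 (1.18), Irf1 (1.47) and Ifi35 (1.76) lay below 2 and Ifi27 was lower in stroma 2 (0.713). With 1 library on each side this ratio has no test.

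In assembloid epithelium 92 and 32 thinned cells held at least 5 members. Their fibroblast markers summed to 1357 and 346 CPM, against 258 and 77.0 CPM in cells with at most 2 members, and 1 and 3 of the 10 markers were at 0. The part of fibroblast RNA in these cells was not tested.

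Among the fibroblast-like cells, the trophocyte-like class (named for the CD34+ CD81+ cells below the crypts) held 1102 and 2447 CPM of members. The telocyte-like class (named for the Foxl1+ cells along the crypt) held 608 and 1862 CPM. The gate put 6469 of 7870 and 7236 of 8653 fibroblast-like cells in the trophocyte-like class. It thus covers most of them, and its match to the trophocyte-like cluster of the study was not tested. Against the spread of the libraries, 1 of the 36 members was called lower in telocyte-like cells (edgeR, adjusted p under 0.05) and 0 higher, while 7.56% of all genes were called, 4.21% lower and 3.35% higher. That member was Isg20, with 19 and 24.1 CPM in telocyte-like against 36.3 and 44.5 CPM in trophocyte-like cells (-0.95 ± 0.18, adjusted p = 0.0416). Both classes came from the same libraries, and with the library as a block 26 members were lower and 1, Zbp1, was higher, against 15.9% of all genes called lower. The blocked fit has 4 sums and 1 residual degree of freedom, and edgeR took the spread of each gene from that of all genes, so the disagreement of the libraries over a single gene does not enter its p-value. Isg15, for example, was called with 37.0 against 109 CPM in stroma 1 and 337 against 362 CPM in stroma 2. Trim30a stood at 1.65 against 8.67 CPM and 11.8 against 37.7 CPM, Bst2 at 129 against 312 CPM and 439 against 666 CPM, and Zbp1 at 36.1 against 30.0 CPM and 87.9 against 63.7 CPM. In all, 31 members were lower in telocyte-like cells in both libraries, as were 39.8% of 16285 genes with at least 20 UMIs in these classes. Telocyte-like cells were few, 255 and 341, and macrophage markers were near 0 in both classes, with at most 8.65 CPM.

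The other genes of the pathway were read from 8 lists with 147 names, of which 142 had a row. Interferons themselves were almost absent. Over all passing cells, Ifnb1 was found with 0 and 4 UMIs in stroma and 11 and 4 in the assembloid epithelial libraries, and with 0 in organoids and tissue. Ifnl2 and Ifnl3 together gave 4 UMIs in assembloid epithelium 1 and 1 UMI in organoids. Ifng gave 3 UMIs in stroma 1 and 1 in each tissue library. Ifnz was found with 24 and 28 UMIs in stroma and Ifnk with 7 to 25 UMIs in the epithelial libraries. A ligand that few cells make for a short time could be missed at this depth.

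Of the 6 receptor genes, 3 were higher and 1 lower in stroma than in assembloid epithelium, beside 38.7% and 33.9% of all genes. Ifnar2, a chain of the type I receptor, stood at 175 and 175 CPM in stroma, 19.3 and 16.2 in assembloid epithelium, 13.6 and 11.9 in organoids and 4.08 and 3.76 in tissue. Ifnlr1, the chain specific to type III interferon, stood at 0.340 and 0.116 CPM in stroma, 26.4 and 39.9 in assembloid epithelium, 4.04 and 6.83 in organoids and 7.4 and 6.66 in tissue. Assembloid epithelium thus held the highest Ifnlr1 of all groups, without overlap (log2 fold change 2.60 ± 0.24 over tissue, adjusted p = 9.88e-05, and -2.77 ± 0.24 for organoids against assembloids, adjusted p = 9.65e-05). The type II receptor chains Ifngr1 and Ifngr2 lay between 47.8 and 175 CPM in all libraries. Of these genes, 3 were higher in assembloid than in tissue epithelium and 0 lower, beside 26.8% and 23.1% of all genes.

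Downstream of the receptors, Jak1 stood at 59.4 to 117 CPM in the epithelial libraries and at 179 and 197 CPM in stroma, and Ptpn2, a phosphatase that dampens the signal, at 39.5 to 89.1 CPM over the 8 libraries. Socs3, another brake, stood at 186 and 185 CPM in stroma and at 1.53 to 5.81 CPM in the epithelial libraries. Jak2 was lower in organoids than in assembloids (-1.61 ± 0.22, adjusted p = 6.46e-04).

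Of the upstream sensors and adaptors, 14 could be tested, and 7 were higher and 1 lower in organoids against assembloids, beside 24.6% and 28.9% of all genes. The share of the list called in either direction, 57.1%, lay near that of all genes, 53.5%. Cgas, the DNA sensor, stood at 18.3 and 17.3 CPM in organoids, 3.28 and 3.77 in assembloid epithelium, 3.57 and 3.76 in tissue and 9.87 and 10.6 in stroma (2.21 ± 0.23 for organoids against assembloids, adjusted p = 1.94e-04). Tmem173 (STING), the adaptor of Cgas, stood at 22.1 and 30.4 CPM in organoids, 8.05 and 8.85 in assembloid epithelium, 6.30 and 5.36 in tissue and 47.7 and 48.1 in stroma. Samhd1 (20.2 to 42.3 CPM) and Irf8 (14.8 to 41.4 CPM) were not called in any of the 3 epithelial comparisons or in stroma against assembloid epithelium. Irf5 was higher in assembloid than in tissue epithelium (2.00 ± 0.62, adjusted p = 0.0259) at 0.190 to 0.995 CPM in these libraries.

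Genes of MHC class I presentation bring peptides to T cells. Of 16, 3 were higher and 3 lower in organoids against assembloids, beside 24.6% and 28.9% of all genes, and their median was -0.04. H2-K1 stood at 273 and 290 CPM in organoids, 272 and 348 in assembloid epithelium and 342 and 379 in tissue, and at 190 and 253 in stroma. B2m, the light chain, stood at 90.4 and 98.2 CPM in organoids, 124 and 142 in assembloid epithelium, 216 and 190 in tissue and 379 and 658 in stroma. Against tissue, 7 of the 16 were lower and 1 higher in assembloids, and likewise 7 and 1 in organoids. The 50% called in each lay near the 49.9% and 47.3% of all genes. The immunoproteasome subunit Psmb8 was among those lower, with 3.24 and 2.80 CPM in assembloid epithelium against 22.2 and 23.1 in tissue (-2.51 ± 0.28, adjusted p = 2.45e-04), and it stood at 88.9 and 134 CPM in stroma. Nlrc5, which drives this class, was lower in organoids than in assembloids (-1.98 ± 0.52, adjusted p = 0.0123) at under 1 CPM in every library. For MHC class II, H2-Ab1 stood at 4.31 and 3.11 CPM in assembloid epithelium, 0.139 and 0.216 in organoids, 2.06 and 1.03 in tissue and 20.4 and 8.36 in stroma, and H2-DMa at 1.79 to 6.65 CPM over the 8 libraries. Cd74, the chaperone of class II, stood at 7.76 and 4.26 CPM in assembloid epithelium, 0.496 and 0.755 in organoids, 6.17 and 3.36 in tissue and 0.116 and 0.210 in stroma. H2-Eb1 and H2-DMb1 were lower in both cultured epithelia than in tissue, where they stood at 1.51 and 0.731 CPM and at 1.15 and 0.839 CPM. These low levels lie beside the macrophage markers given above, and their part was not tested.

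Of the immunity-related GTPases and other guanylate-binding proteins, 8 could be tested in the epithelium. In organoids against assembloids 5 were lower and 0 higher, beside 28.9% and 24.6% of all genes. Iigp1 stood at 87.0 and 156 CPM in stroma and 1.13 and 0.454 in assembloid epithelium, with 0 UMIs in both organoid libraries. Irgm1 stood at 15.3 and 42.4 CPM in stroma, 17.2 and 7.02 in assembloid epithelium, 5.35 and 4.32 in organoids and 6.27 and 8.39 in tissue. Irgm2 stood at 5.18 and 18.7 CPM in stroma, 0.507 and 0.482 in assembloid epithelium, 0.139 and 0.119 in organoids and 2.89 and 3.63 in tissue, an order shared with Gbp7. Gbp10 was found in stroma alone, at 0.204 and 0.775 CPM. Gbp5 was higher in assembloid epithelium (11.6 and 9.45 CPM) than in tissue (0.149 and 0.325 CPM), which is opposite to Gbp2 and Gbp7 (log2 fold change 5.90 ± 0.49, adjusted p = 6.38e-05). In the list of other interferon-induced genes, 29 of 55 were lower and 10 higher in organoids against assembloids, beside 28.9% and 24.6% of all genes, and 20 were higher and 18 lower in assembloids against tissue, beside 26.8% and 23.1%. The restriction factor Ifitm3 was higher in organoids than in assembloids (1.10 ± 0.41, adjusted p = 0.0492) and Ifitm2 was not called (0.17 ± 0.23, adjusted p = 0.551). In organoids they stood at 234 and 200.02 CPM and at 169 and 159 CPM, against 125 and 55.4 CPM and 133 and 132 CPM in assembloid epithelium. In stroma they stood at 4149 and 4170 CPM and at 2498 and 2209 CPM. Ifi203, Ifi207 and Ifi208, members of a family of DNA-binding proteins, had 0 UMIs in both organoid libraries and stood at 26.7 and 98.4, at 18.1 and 42.1, and at 0.353 and 2.53 CPM in stroma. Ifitm1 stood at 2155 and 1811 CPM in stroma, 43.3 and 15.7 in assembloid epithelium, 1.17 and 0.496 in organoids and 0.0213 and 0.0271 in tissue. Its level in assembloid epithelium was 3.29% and 0.913% of that in the fibroblast-like cells of the same libraries, and that of Iigp1 2.28% and 0.663%, beside the 2.30% and 0.624% of the fibroblast markers. The part of fibroblast RNA in these levels was not tested.

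Lists of genes that took no part in choosing the cells could be read in the fibroblast-like cells with several members. Genes with at least 20 UMIs in these cells were counted, and the levels are a description, since all cells come from the same libraries. Of all 16227 genes, 1.69% were at least 2-fold higher than in cells with at most 2 members in both libraries. Among the other pathway genes this held for 11 of 13 immunity-related GTPases and guanylate-binding proteins, 51 of 58 other interferon-induced genes, 8 of 16 genes of MHC class I and 4 of 14 upstream sensors, and for 0 of 6 receptors and 0 of 5 genes of MHC class II. Cxcl10, a chemokine that draws T cells, stood at 1011 and 902 CPM against 7.78 and 27.5 CPM, and Cxcl9, a chemokine known for its response to type II interferon, at 29.3 and 27.0 against 0.258 and 1.64 CPM. Ifnar2 stood at 193 and 179 CPM against 181 and 174 CPM, and Ifngr1 at 126 and 154 against 167 and 191 CPM. Of the 6 receptors 4 were higher in both libraries, the most for Ifnar1 with ratios of 1.27 and 1.19, and Ifngr1 was lower in both. Cxcl10, Cxcl9, Ifnar1, Ifnar2 and Ifngr1 are named here after their values had been seen.

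**Figure D5:**
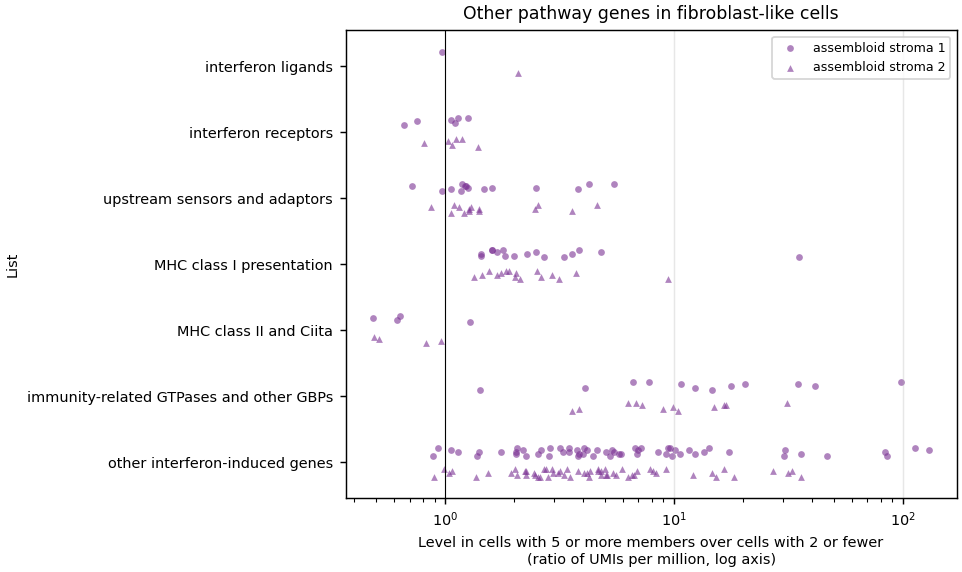
Ratio of the level in fibroblast-like cells with at least 5 members to that in cells with at most 2 (log axis), for the genes of the pathway lists shown that had at least 20 UMIs and a ratio above 0, with circles for stroma 1 and triangles for stroma 2. Ratios of the interferon-induced lists lie mostly above 2 in both libraries, while those of receptors lie around 1.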

How the data were processed

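The authors deposited raw UMI counts per gene and cell for 8 libraries. Per the file headers they were made with Cell Ranger 6.0.1 (stroma) and 7.1.0 (epithelium), while the submitters' processing notes name Cell Ranger 6 and mm10. Whether intronic reads were counted is not given in the sources used here. Of the 32285 gene identifiers, 99.8% were in GENCODE M21.

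Cells under 500 genes or over 10% mitochondrial counts were removed. A cell took the class whose list of 10 markers had the most genes with a UMI, at least 3 and at least 2 more than any other list. Epithelial-like cells were used from epithelial libraries and all cells outside that gate from stroma. Counts were summed per library and tested with edgeR 4.0.16 (R 4.3.3, quasi-likelihood, TMM, filterByExpr) with Benjamini-Hochberg adjustment at 0.05 over all genes tested. The 3 epithelial groups shared a fit, and stroma was fitted with all 8 libraries. On simulated data edgeR recovered 95.5% of 200 genes changed 4-fold for assembloid against tissue (18781 genes) and 96% for stroma against assembloid epithelium (19951 genes). It made 11 and 5 false calls. The changed genes were well covered, all genes had the same dispersion and no other gene differed, so these rates do not describe the sparse members. Alternatives were DESeq2 1.42.0, no low-count filter, other cell filters, all passing cells, the replicate number as a block and each library left out. Single values had no permutation test, since 2 libraries against 2 cannot go below p = 0.333. Shares used cells thinned to 2000 UMIs with exact (Clopper-Pearson) intervals at 95%, and a count of 0 was given the limit of 3 counts. Doublets were left in.

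The members and lists were chosen with earlier results of these data known. Values in every library were given for the 2 members of each role group with the highest mean CPM and the 3 members with the largest called rise and fall in each comparison. From each list of other pathway genes the 2 with the highest mean CPM and the called gene with the largest change in each comparison were named. Other names were added after their values were seen, and one pathway item is not reported here. The deviations of same-numbered libraries correlated weakly and with both signs (r of -0.22 to 0.27 between groups), so the numbers were not taken as pairs. Replicates differed by more than counting error in each group (chi-square per gene of 24.1 to 401).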

Additional observations from a re-analysis of the deposited data

How the results depend on the processing

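Over 109 called pairs of a member and a comparison, 75 kept their call under every alternative, and of 1441 values compared, 1316 kept the call, 125 lost it and 0 turned direction. The cause of the losses was not tested, and the shares of all genes called under the alternatives are not given beside the counts that follow. The count of called members for assembloid against tissue ranged from 9 to 21 with a library left out (9 without tissue 1, 12 without tissue 2), from 24 to 30 for organoid against tissue, from 24 to 27 for organoid against assembloid and from 27 to 32 for stroma against assembloid. With the replicate block it was 20, 30, 25 and 31 in these comparisons, and 27 for telocyte-like against trophocyte-like cells, where the block is the library. With library as a block these classes are compared within a library. Leaving out a library, or summing all passing cells, was not run for the fibroblast classes. With all 8 libraries in the epithelial fit the counts were 14, 22 and 24.

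The mean share of cells with several members was 11.6% in stroma, 0.477% in assembloid epithelium, 0.0105% in organoids and 0.383% in tissue. With at least 3 members it was 29.0%, 3.42%, 0.461% and 4.23%. With at least 8 it was 0.147% in assembloid epithelium (0.0660% and 0.228% in the libraries) and 0.0723% in tissue (0% and 0.145%). Thinned to 1000 UMIs it was 0.145% in assembloid epithelium (0.0804% and 0.210%) and 0% in tissue. Without thinning it was 71.5%, 15.2% (6.24% and 24.1%), 27.3% (44.4% and 10.3%) and 23.4%, with overlap among the epithelial groups. With a library left out the shares were 3.68% and 19.5% in stroma, 0.434% and 0.521% in assembloid epithelium, 0% and 0.0210% in organoids and 0.369% and 0.398% in tissue. In organoids 9 members had under 20 UMIs over both libraries, which limits the precision of their values.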
